A study of Mus musculus with 12 samples.

Results

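The semaphorin, plexin, neuropilin, Eph receptor and ephrin genes encode ligands and receptors first known from axon guidance. They were taken as every row of the deposited table whose mouse Ensembl identifier maps, in GENCODE mouse release 21, to a protein-coding symbol that starts with Sema, Plxn, Epha, Ephb, Efna or Efnb, or is Nrp1 or Nrp2. That gave 53 of 25904 genes: 20 semaphorins, 9 plexins, 2 neuropilins, 14 Eph receptors and 8 ephrins. Expression came from 12 RNA-seq libraries of cells sorted from C57BL/6 mice, with 4 groups of 3. The WT microglia came from Tgfbr2fl/fl mice without Cre, and KO microglia from Cx3cr1CreER/+Tgfbr2fl/fl mice, in which tamoxifen lets the recombinase CreER, placed on 1 allele of Cx3cr1, delete floxed parts of Tgfbr2, the type II receptor gene for TGF-beta. WT and KO macrophages were the CNS-repopulating progeny of Tgfbr2fl/fl or Cx3cr1CreER/+Tgfbr2fl/fl bone marrow, transplanted into irradiated Cx3cr1CreER/+R26DTA/+ recipients, whose own microglia are killed by diphtheria toxin fragment A after tamoxifen. All 4 groups received tamoxifen (3 daily doses of 5 mg), the macrophage groups 6 weeks after the transplant, and cells were sorted 18 to 22 days later as Ly6C-negative CD11b-positive cells. The gate took low F4/80 in WT and high F4/80 in KO cells, and only KO cells carried CreER, so gate, CreER and deletion cannot be told apart. Only the macrophage groups came from irradiated and transplanted mice whose own microglia were killed. Cell origin cannot be told apart from these treatments. Cells of 1 to 5 mice were pooled for a library; ages are not given in the sources here.

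Semaphorins are secreted or membrane-bound ligands that share the sema domain, and plexins are their main receptors, whose cytoplasmic part acts on small GTPases and so on the cytoskeleton. Neuropilins have short cytoplasmic tails and serve as co-receptors, with plexins for secreted semaphorins and with other receptors for VEGF. Eph receptors are receptor tyrosine kinases. Their ligands, the ephrins, are tethered to the membrane, by a lipid anchor in the A class and by a transmembrane segment in the B class, so that signals can pass into both touching cells. Outside the nervous system these families steer cell movement, adhesion and immune cell contacts, and microglia and macrophages are known to use several of them.

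Depth was 2615404 to 6364994 reads in genes per library, and values are normalized counts, in which 1 read was worth 0.718 to 1.6. Markers of all myeloid cells summed to 36452 to 41945 in WT microglia and 16033 to 18310 in KO microglia. In macrophages they summed to 18361 to 20427 in WT and 14810 to 16320 in KO libraries. The 6 microglia markers summed to 47896 to 61493 in WT microglia and 11802 to 12448 in WT macrophages. Their sums were 3437 to 3653 in KO microglia and 3395 to 4193 in KO macrophages, and so overlapped between the origins. Among KO cells, 2 of the 6 were called higher and 2 lower in macrophages (adjusted p at most 0.05 in the limma fit below), while 10.5% of all genes were called. The 6 CNS macrophage markers went from 84.9 to 108 in WT microglia to 18944 to 23272 in KO microglia, above the 6158 to 7272 of WT and the 16738 to 16946 of KO macrophages. Monocyte markers (4 of 5 in the table, Ly6c2 at 0 in all groups but KO macrophages) summed to 21.7 to 46.4 in WT and 114 to 146 in KO microglia. In macrophages they summed to 156 to 209 in WT and 160 to 340 in KO libraries. The mitochondrial share of reads was 3.86% to 4.36% in WT and 5.84% to 7.68% in KO microglia. The part of these differences in the results was not tested. Tgfbr2 itself was lower in every KO library (2068 to 2469) than in every WT library (2495 to 3486), and gene-level values do not resolve the deleted exons. Markers of other cells also moved with the groups. The 8 neuron markers, all in the table, summed to 14.1 to 24.5 in WT microglia (Syt1 at 0) and 104 to 143 in KO microglia, and to 31.9 to 54.6 in WT and 79.7 to 147 in KO macrophages. The 6 astrocyte markers summed to 46.7 to 112 and 197 to 273 in WT and KO microglia, and to 41.9 to 66.1 and 139 to 178 in WT and KO macrophages. Pools also differed in sex: the Y-linked Ddx3y was at 469.97 to 508 in all 3 KO microglia libraries but in 1 library of 3 in each other group. In bulk samples, fewer expressing cells and less RNA per cell cannot be told apart.

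The members stood at very different levels. A gene was tested when it reached a normalized count of 10 in at least 3 of the 12 libraries, which 23 members did: 8 semaphorins, all 9 plexins, both neuropilins, 2 Eph receptors (Epha2, Ephb3) and 2 ephrins (Efnb1, Efnb2). Sema6a reached that minimum in KO microglia alone, and Ephb3 and Efnb2 in WT microglia alone, so these 3 could pass only by differing between groups. Their values are given as a description, and counts of called members are given with and without them. The other 30 members were at 14.4 normalized counts or less in every library, with the exception of Ephb2 in 1 library (136.5). None of the 7 class 3 semaphorins, the secreted class that neuropilins bind, exceeded a normalized count of 8.003 in any library, and Sema3g had 3 reads over all 12. The same held for the A class ephrins, of which Efna4 was the highest, at 7.73 in 1 library, and for the GPI-anchored Sema7a (at most 3.93).

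Levels between genes were compared per kilobase of exon, as normalized counts divided by the length of all annotated exons of the gene. Plxnb2, the receptor gene for Sema4C and Sema4D, was the highest member in all 4 groups on this scale, at 659 ± 72.6 (WT) and 462 ± 21.5 (KO) in microglia and 324 ± 20.6 (WT) and 394 ± 10.0 (KO) in macrophages (mean ± SD, n = 3 libraries, as for every ± on a level). Next in WT microglia came Sema4d at 219 ± 13.8, then Nrp1 at 114 ± 10.1 and Sema4c at 92.2 ± 7.08. In the other 3 groups Nrp1 was second (325 ± 17 in KO microglia, 309.5 ± 37.7 in WT and 299.7 ± 7.05 in KO macrophages), and its SD interval overlapped that of Plxnb2 only in WT macrophages. Nrp1 and Plxnb2 changed places in these 3 groups when the longest annotated transcript was used as the length (for KO microglia, 873 for Nrp1 and 548 for Plxnb2).

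Family totals on the per-kilobase scale showed where the groups separated. Plexin totals were 688 to 840.0 (WT) and 697 to 743 (KO) in microglia and 435 to 476 (WT) and 670.4 to 705 (KO) in macrophages, so WT macrophages lay below all others. Neuropilin totals were lowest in WT microglia (139 to 163, against 404 to 446 in KO microglia). Eph receptor and ephrin totals were highest in WT microglia. Ephrins summed to 40.7 to 58.4 in WT microglia and to at most 16.7 in every other library, and Eph receptors to 48.9 to 68.3 in WT microglia and at most 28.2 elsewhere. Semaphorin totals overlapped between all 4 groups, from 406 to 487 in WT microglia to 354 to 414 in KO macrophages, although single semaphorins changed strongly in both directions.

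**Figure D1:**
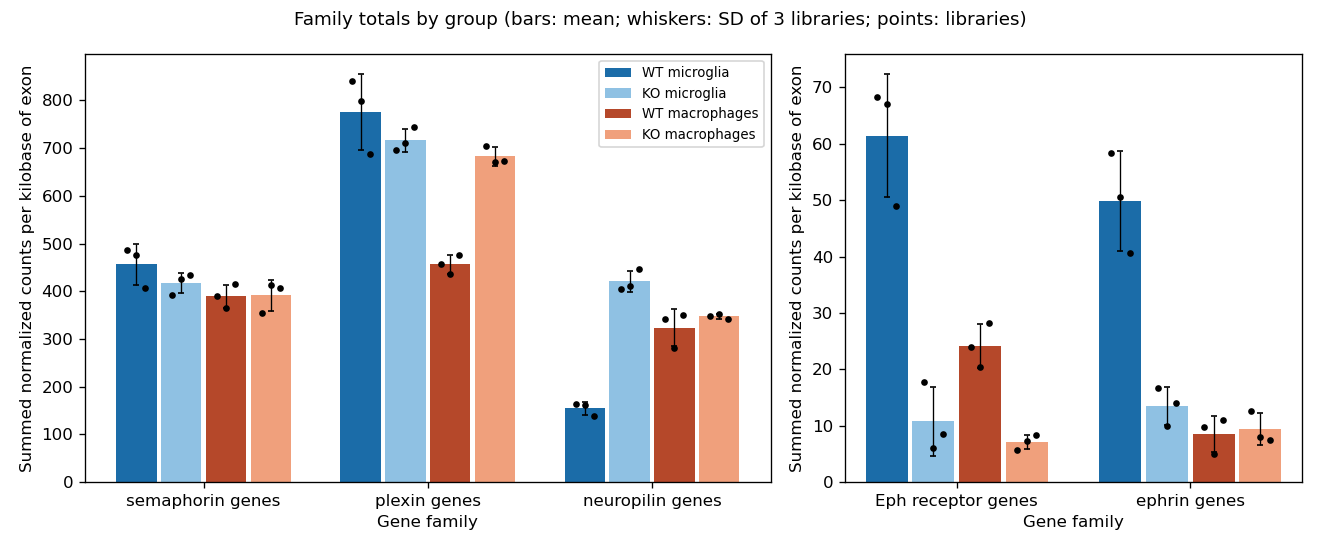
Summed normalized counts per kilobase of exon (y axis) for each guidance gene family (x axis) in the 4 groups; bars are means, whiskers SDs and points the 3 libraries of a group. Plexin totals are lowest in WT macrophages (mean 456), neuropilin totals lowest in WT microglia (mean 154), and Eph receptor and ephrin totals highest in WT microglia (means 61.5 and 49.9).

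The first comparison, KO against WT microglia, asked how resident cells with the deletion differed from those without. Among the 23 tested members, 11 rose and 10 fell (limma, Benjamini-Hochberg adjusted p at most 0.05 over all 12519 genes tested), while 42.5% of all genes tested were called, 21.9% higher and 20.6% lower. Without Sema6a, Ephb3 and Efnb2, 10 of 20 rose and 8 fell, with a median absolute log2 fold change of 1.51, beside 0.41 for all genes tested. For 22 of the 23 members, 12 higher and 10 lower, KO and WT libraries were fully apart, as they were for 55.2% of all genes (27.4% higher, 27.8% lower). Sema6a, Ephb3 and Efnb2 could pass the filter only by differing between groups. Without them, 11 of 20 members were fully apart upward and 8 downward. By family, 5 of 9 plexins and both neuropilins rose, Epha2 and Efnb1 fell, and the semaphorins other than Sema6a divided into 3 higher and 4 lower.

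In macrophages, KO against WT, 10 members rose and 4 fell, and 31.4% of all genes were called, 16.0% higher and 15.4% lower. Plexins made up 7 of those that rose, and no plexin fell. Sema6a, Ephb3 and Efnb2 were not among those called, and the median absolute log2 fold change was 1.27 for the other 20 members and 0.34 for all genes. Libraries were fully apart for 11 members upward and 4 downward, and for 45.2% of all genes (22.4% higher, 22.8% lower). Of the 12 members called in both KO comparisons, which share no library, Nrp2, Plxna1, Plxnc1, Plxnd1, Sema6b and Sema6d rose in both (called so for 9.72% of all genes) and Epha2, Sema4c, Sema4d and Sema4g fell in both (8.22%). Plxna4 and Plxnb2 fell in KO microglia and rose in KO macrophages, a pattern called for 1.09% of all genes. The reverse pattern, called for 0.959% of all genes, was found in 0 members. Whether the KO effect differed between the macrophage and microglia groups, which differ in origin and in treatment, was itself tested, as the interaction term of the same fit. It did so for 15 members, 9 with a more positive and 6 with a more negative effect in macrophages, and for 25.8% of all genes (13.0% and 12.9%). Without Ephb3 and Efnb2, which were tested only for their level in WT microglia, the 9 became 7. The plot of the 2 KO effects shows the 15 members off the line of equal effect.

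**Figure D2:**
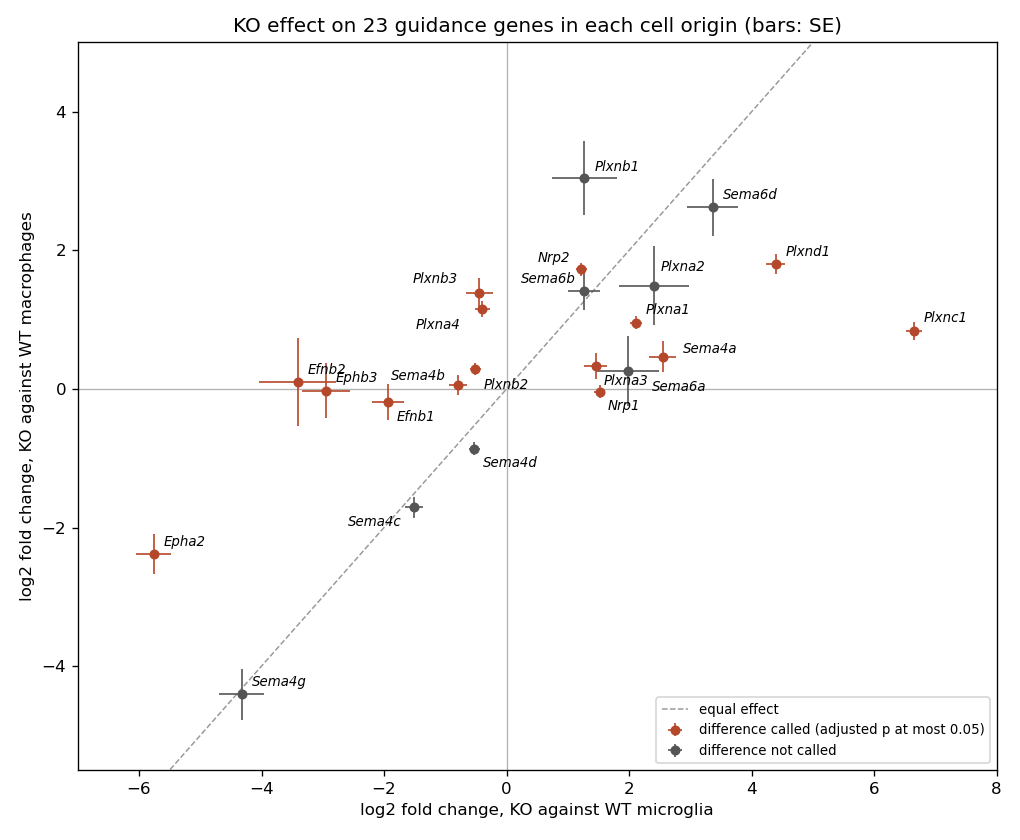
Log2 fold change of the 23 tested members in KO against WT microglia (x axis) and KO against WT macrophages (y axis), with SE bars; orange points are members whose 2 effects differ at an adjusted p of at most 0.05 and the dashed line marks equal effects. Plxnc1 lies far right (6.65 and 0.84), Sema4g and Sema4c lie near the line, and Ephb3 and the 2 ephrins lie on the left at values near 0 for macrophages.

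The sequences upstream of Plxnc1 and Epha2 are shown because these genes had the largest rise and the largest fall among the members in KO microglia and moved the same way in KO macrophages. Each is the RefSeq window of build GRCm38.p6 from 250 bases before to 50 bases after the gene's start, written 5′ to 3′ on the strand of the gene (minus for Plxnc1 at chr10:94944796-94945095, plus for Epha2 at chr4:141300971-141301270). Capitals mark a match to the interferon response element (GAAA, any 2 bases, GAAA) in Plxnc1, and a match to TGACGTCA, the cAMP response element, in Epha2.
Plxnc1: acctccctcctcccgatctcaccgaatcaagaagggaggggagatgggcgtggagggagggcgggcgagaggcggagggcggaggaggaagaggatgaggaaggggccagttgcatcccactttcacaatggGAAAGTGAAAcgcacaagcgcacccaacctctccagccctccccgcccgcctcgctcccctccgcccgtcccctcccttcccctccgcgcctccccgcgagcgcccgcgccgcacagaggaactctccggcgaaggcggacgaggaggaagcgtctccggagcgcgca
Epha2: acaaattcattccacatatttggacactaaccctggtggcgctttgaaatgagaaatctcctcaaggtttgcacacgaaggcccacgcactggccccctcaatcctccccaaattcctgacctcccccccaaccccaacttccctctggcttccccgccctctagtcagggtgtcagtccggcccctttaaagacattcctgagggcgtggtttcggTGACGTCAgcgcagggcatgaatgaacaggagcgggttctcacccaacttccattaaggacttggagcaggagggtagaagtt
A set of 4 motifs was searched on both strands in the 30 windows that RefSeq gives for 20 of the 23 tested members. CAGAC, the core of the SMAD box, was in 16 of these 30 windows and in 49.6% of all 32851 promoter windows of the same length. No match to it was found in the windows of Plxnc1, Epha2, Plxnd1 and Sema4g. GAGGAAGT, a PU.1 site, was in none of the 30 and in 3.2% of all windows. The interferon response element was in 2 of 30 and 3.44% of all, and TGACGTCA in 1 of 30 and 1.79% of all. The last pair of motifs was chosen after these 2 windows had been read. A match is a run of letters and not a measured binding site. Plxna1, Plxna4 and Sema6a had no entry.

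Among the ligands, class 4 semaphorins are transmembrane proteins, some of which are also shed. Of 5 that were tested, 4 fell in KO microglia, where 20.6% of all genes were called lower. Sema4D is an immune semaphorin that acts on plexin-B receptors and CD72. Sema4d (ENSMUSG00000021451, GRCm38 chr13:51685529-51793747, minus strand) was at 1763, 1725 and 1563 in WT against 1067, 1242 and 1199 in KO microglia. Macrophages stood at 1321, 1249 and 1429 in WT and 674, 831 and 699 in KO libraries. Every KO library was below every WT library of its origin. The gene fell, with log2 fold changes of -0.53 ± 0.09 (adjusted p = 0.000313) and -0.86 ± 0.09 (adjusted p = 6.15e-06; fold changes are differences of log2(normalized count + 1), ± SE). Sema4c, whose product is another plexin-B2 ligand (ENSMUSG00000026121, GRCm38 chr1:36548639-36558349, minus strand), was at 446, 438 and 386 in WT against 135, 167 and 144 in KO microglia. In macrophages it was at 539, 492 and 591 in WT and 123, 190.2 and 189 in KO libraries. Its falls had nearly the same size, -1.51 ± 0.15 in microglia and -1.71 ± 0.15 in macrophages, and their difference was not called (-0.20 ± 0.21, 95% interval -0.65 to 0.25, adjusted p = 0.529). An antisense gene, D430040D24Rik, overlaps 334 bases of its exons and averaged 21.9, 4.23, 39.5 and 6.81 in WT and KO microglia and WT and KO macrophages.

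Sema4g had the steepest falls of the class. It (ENSMUSG00000025207, GRCm38 chr19:44989101-45003397, plus strand) was at 525, 519 and 461 for WT microglia, compared with 23.6, 30.5 and 19.3 after deletion. WT macrophages held less (36.4, 59.7 and 35.4) and KO macrophages next to nothing (0, 1.75 and 2.15, 5 reads in all). The 4 groups did not overlap, and the log2 fold changes were -4.32 ± 0.37 (adjusted p = 1.41e-07) and -4.41 ± 0.37 (adjusted p = 4.04e-07). Sema4b fell in KO microglia, from 359, 344 and 263 to 189, 175 and 188 (-0.79 ± 0.15, adjusted p = 0.000371). In macrophages the Sema4b libraries overlapped (218.5, 205 and 239.5 in WT, 184, 272 and 242.02 in KO; 0.06 ± 0.15, adjusted p = 0.791), and the difference between the effects was called (0.85 ± 0.21, adjusted p = 0.00666). Sema4a, a semaphorin of antigen-presenting cells that costimulates T cells, went the other way. It was at 35.3, 20.6 and 33.1 in WT against 183, 178 and 163 in KO microglia (2.55 ± 0.22, adjusted p = 1.48e-07). WT macrophages (103, 83.9 and 96.3) and KO macrophages (92.8, 147 and 162) overlapped and did not pass (0.47 ± 0.22, adjusted p = 0.122).

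Class 6 semaphorins are transmembrane ligands of plexin-A receptors. Sema6D is known to act through a complex of plexin-A1 with Trem2 and Tyrobp in myeloid cells. Sema6d (ENSMUSG00000027200, GRCm38 chr2:124089969-124667770, plus strand) was at 1453, 1539 and 1727 in KO microglia and 1732, 1789 and 1898 in KO macrophages, above every WT library. WT macrophages were at 283, 327 and 272, and WT microglia at 241, 277 and 51.7, with replicate 3 well below the other libraries. The rises were 3.36 ± 0.41 in microglia (adjusted p = 7.08e-06) and 2.62 ± 0.41 in macrophages (adjusted p = 0.00019). Without WT microglia replicate 3 the first was 2.6 and remained called (adjusted p = 1.19e-10), and the difference between the effects, not called with all libraries (-0.74 ± 0.58), was 0.02. Replicate 3 was the only WT microglia library with high Ddx3y (436, against 0.88 and 1.29 in replicates 1 and 2). All KO microglia libraries had high Ddx3y, so without replicate 3 sex and deletion cannot be told apart in microglia. Sema6b was lower, at 17.6, 15.5 and 19.7 in WT against 54, 35.4 and 42.6 in KO microglia, and 37.3, 17.8 and 29.6 and 78.4, 69.8 and 72.5 in WT and KO macrophages. It rose by 1.26 ± 0.27 (adjusted p = 0.00123) and 1.41 ± 0.27 (adjusted p = 0.000949). Sema6a, at 12.8, 20.6 and 27.3 in KO microglia, had 12 reads over the 3 WT microglia libraries (a log2 difference of 1.99 ± 0.50, with no test read from it). It had 3 and 4 reads in WT and KO macrophages (ratio of KO to WT 1.31, exact 95% counting interval 0.221 to 8.92). The neuron and astrocyte marker sums given above were higher in KO than in WT cells of both origins, while Sema6a stayed at 3 and 4 reads in macrophages. Their part in the low Sema6a values of KO microglia was not tested.

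**Figure D3:**
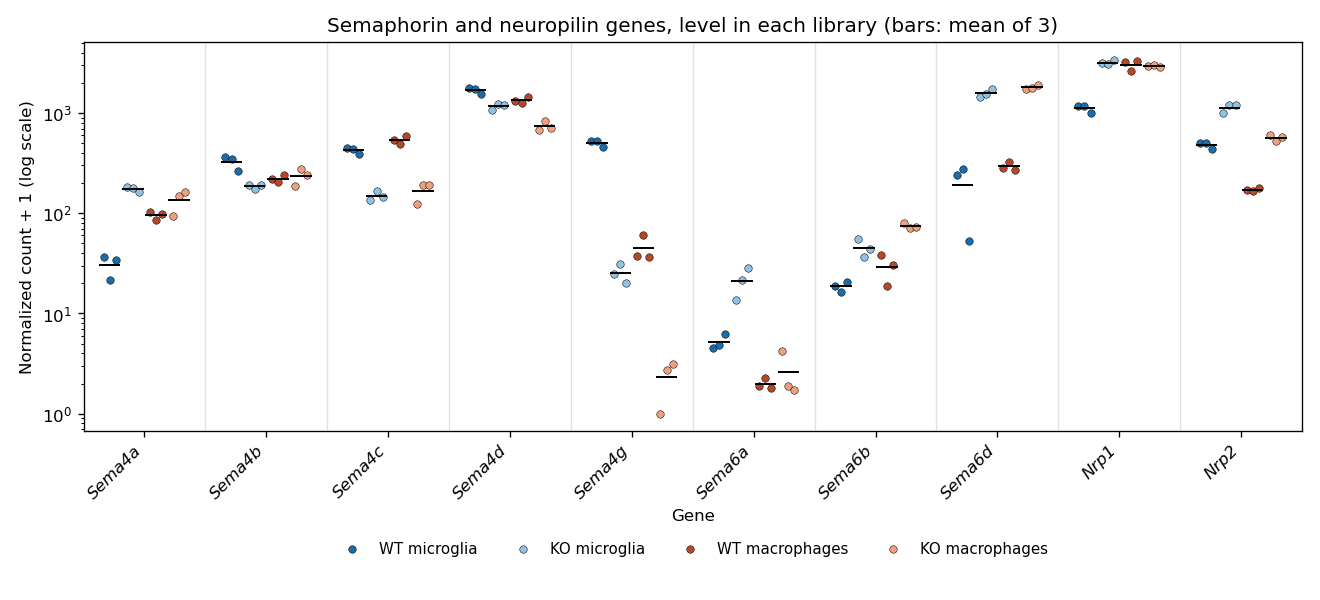
Normalized count + 1 (log y axis) of the 8 tested semaphorins and 2 neuropilins (x axis) in every library; points are libraries, bars means of 3 and colours the 4 groups. Sema6d is at 1453 to 1898 in both KO groups and Sema4g falls from about 502 in WT microglia to 1.3 in KO macrophages.

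Among the receptors, 5 of 9 plexins rose and 2 fell in KO microglia, beside 21.9% of all genes called higher and 20.6% lower. Plexin-C1 is the receptor of Sema7A, whose own gene was near 0 here. Plxnc1 (ENSMUSG00000074785, GRCm38 chr10:94790866-94944835, minus strand) was nearly absent from WT microglia (7.05, 5.15 and 6.21) and stood at 693, 708 and 738 in KO microglia. WT macrophages had 317, 282 and 244 and KO macrophages 451, 508 and 546. The rise in microglia was 6.65 ± 0.13 (adjusted p = 9.07e-15), the largest change among the members in any comparison, and that in macrophages 0.84 ± 0.13 (adjusted p = 0.000184). Plexin-D1 is the receptor of Sema3E, best known in vessels and thymocytes. Plxnd1 (ENSMUSG00000030123, GRCm38 chr6:115954811-115995005, minus strand) went from 8.81, 12.9 and 13.5 to 248, 268 and 269 in microglia and from 135, 168 and 148 to 509, 511 and 554 in macrophages. The groups did not overlap in either origin, and the rises were 4.39 ± 0.15 (adjusted p = 2.86e-12) and 1.80 ± 0.15 (adjusted p = 3.24e-07). Sema3e, the gene of its ligand, did not exceed 2.54 in any library.

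Plexin-A receptors bind class 6 semaphorins directly and class 3 semaphorins with neuropilins. Plxna1 (ENSMUSG00000030084, GRCm38 chr6:89316314-89362620, minus strand) was at 77.6, 87.6 and 80.7 in WT against 352, 373 and 349.7 in KO microglia. In macrophages it was at 391, 404 and 438 in WT and 866, 798 and 731 in KO libraries. It rose in both, by 2.11 ± 0.09 (adjusted p = 5.52e-11) and 0.95 ± 0.09 (adjusted p = 1.7e-06), and KO microglia did not exceed WT macrophages in any library. The antisense gene Gm26811, which shares 10.7% of its exon bases, averaged at most 9.04 in any group. Plxna3, on the X chromosome, rose in KO microglia from 52.9, 39.9 and 50.7 to 153, 127 and 118 (1.45 ± 0.19, adjusted p = 1.3e-05; with Ddx3y as a covariate 1.48, adjusted p = 0.000112). In macrophages the Plxna3 values were 57.3, 83.9 and 74.9 and 99.2, 74.2 and 97 and did not pass (0.32 ± 0.19, adjusted p = 0.208). Plxna2 was scarce, with 6 reads in WT microglia and normalized counts of 13.7, 10.8 and 12.1 in KO microglia (2.41 ± 0.57, adjusted p = 0.003). In KO macrophages Plxna2 was at 40.0, 26.2 and 33.8 against 10.9, 16.5 and 7.41 in WT (1.49 ± 0.57, adjusted p = 0.0609).

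Plxna4 and Plxnb2 moved in opposite directions in the 2 origins. Plexin-A4 is a receptor of class 3 and class 6 semaphorins in neurons and is also found in myeloid cells. Plxna4 (ENSMUSG00000029765, GRCm38 chr6:32144268-32588192, minus strand) was at 1303, 1299.9 and 1107 in WT against 887, 951 and 978 in KO microglia. Macrophages stood at 256, 245 and 309 in WT and 715, 573 and 525 in KO libraries. Thus KO microglia lay below WT microglia, and KO macrophages above WT macrophages, without overlap. The changes were -0.39 ± 0.12 (adjusted p = 0.0136) and 1.15 ± 0.12 (adjusted p = 3.08e-06), and their difference 1.55 ± 0.17 (adjusted p = 6.71e-06). The fall in microglia lost its call when WT microglia replicate 1, WT microglia replicate 2 or KO microglia replicate 1 was left out (adjusted p = 0.0569, 0.0553 and 0.0565). The neuron marker sums were higher in KO than in WT cells of both origins, whereas Plxna4 rose in macrophages and fell in microglia. Their part in the Plxna4 values was not tested. Plexin-B2 is widely expressed, in microglia and macrophages among other cells. Plxnb2 (ENSMUSG00000036606, GRCm38 chr15:89155549-89180788, minus strand) was at 5546, 5258 and 4464 in WT against 3452, 3484 and 3754 in KO microglia. Macrophages stood at 2525, 2327 and 2641 in WT and 3134, 2998 and 3003 in KO libraries. The changes were small, -0.51 ± 0.09 (adjusted p = 0.00023) and 0.29 ± 0.09 (adjusted p = 0.0223). The difference between them was 0.80 ± 0.12 (adjusted p = 0.000239), while the rise in macrophages was not called without WT macrophages replicate 1 or 2 (adjusted p = 0.0568 and 0.0926).

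The remaining plexin-B genes rose in KO macrophages. Plxnb1 encodes a receptor of Sema4D. It had 5 reads in WT macrophages and was at 19.2, 8.73 and 22.3 in KO macrophages (3.04 ± 0.53, adjusted p = 0.000505). In microglia Plxnb1 was at 14.1, 9.02 and 7.24 in WT and 20.6, 37.4 and 20.1 in KO libraries (1.27 ± 0.53, adjusted p = 0.0689). Astrocyte and neuron marker sums were also higher in KO than in WT macrophages, and their part in the Plxnb1 values was not tested. Plxnb3, X-linked and best known from oligodendrocytes, was at 29.1, 22.9 and 23.9 in WT and 80.0, 68.9 and 55.3 in KO macrophages, and rose by 1.39 ± 0.22 (adjusted p = 0.000215). The Plxnb3 libraries of WT and KO microglia overlapped (67.9, 51.5 and 79.7 and 54, 50.1 and 40.2; -0.44 ± 0.22, adjusted p = 0.122). Oligodendrocyte markers summed to 339 to 365 in WT macrophages and 371 to 649.9 in KO macrophages. Their part in the rise of Plxnb3 was not tested.

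Neuropilin-1 binds class 3 semaphorins and VEGF and has also been described as a cell-surface binding partner of TGF-beta. Nrp1 (ENSMUSG00000025810, GRCm38 chr8:128358604-128503363, plus strand) was at 1179, 1159.5 and 999 in WT microglia, compared with 3135, 3046 and 3369 after deletion. Macrophages had a like level with or without the deletion, 3199, 2605 and 3282 in WT and 2923, 3006 and 2869 in KO libraries. The rise in microglia was 1.52 ± 0.10 (adjusted p = 3.44e-09). The change in macrophages was -0.04 ± 0.10 (95% interval -0.24 to 0.16, adjusted p = 0.79), and the 2 effects differed by -1.56 ± 0.13 (adjusted p = 7.05e-07). Neuropilin-2 is the co-receptor of Sema3F and of VEGF-C in lymphatic vessels. Nrp2 (ENSMUSG00000025969, GRCm38 chr1:62703285-62818695, plus strand) was at 506, 506 and 437 in WT against 996, 1194 and 1200.1 in KO microglia. Macrophages stood at 168, 166 and 176 in WT and 595, 525 and 581 in KO libraries. All 4 groups were apart, in the order WT macrophages, WT microglia, KO macrophages, KO microglia. It rose by 1.22 ± 0.10 (adjusted p = 4.43e-08) and 1.73 ± 0.10 (adjusted p = 5.69e-09). The difference of 0.51 ± 0.13 (adjusted p = 0.0123) between the effects was not called with Ddx3y as a covariate (0.42, adjusted p = 0.0672).

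Epha2 and Efnb1 were highest in WT microglia. Ephb3 and Efnb2 passed the filter only through that group, so their being highest there is no result. EphA2 is a receptor tyrosine kinase of epithelial and vessel cells whose main ligand is ephrin-A1. Epha2 (ENSMUSG00000006445, GRCm38 chr4:141301240-141329384, plus strand) was at 256, 272 and 184 in WT microglia, compared with 2.95, 3.93 and 3.22 after deletion (11 reads in all). It was at 103, 86.4 and 119 in WT and 11.2, 24.4 and 23.7 in KO macrophages. The 2 groups of each origin were apart, and the falls were -5.76 ± 0.29 (adjusted p = 2.35e-10) and -2.39 ± 0.29 (adjusted p = 1.44e-05), the first larger by 3.37 ± 0.40 (adjusted p = 1.89e-05). Vessel cell markers (7 of 8 in the table) summed to 194 to 307 in WT microglia and 105 to 132.7 in KO microglia, and to 86.4 to 96.5 in WT and 116.8 to 201 in KO macrophages. Their sums thus moved with Epha2 in microglia and against it in macrophages, and their part in the fall was not tested. Efna1 had 6 reads over all 12 libraries.

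Efnb1 was highest in WT microglia and lower, without overlap, in the other 3 groups. The other B class genes in the fit, Ephb3 and Efnb2, were tested only for their level in WT microglia, so their values are a description. Ephrin-B1 is a transmembrane ligand of EphB receptors. Efnb1 (ENSMUSG00000031217, GRCm38 chrX:99136130-99148991, plus strand) stood at 163, 138 and 120.1 for WT microglia, compared with 47.1, 27.5 and 35.4 in their KO counterparts. Macrophages held 22.8, 16.5 and 28.8 (WT) and 22.4, 20.1 and 15.8 (KO). It fell in KO microglia (log2 -1.93 ± 0.26, adjusted p = 2.08e-05; -1.97 and adjusted p = 0.000158 with Ddx3y as a covariate) and not detectably in KO macrophages (-0.19 ± 0.26, 95% interval -0.75 to 0.36, adjusted p = 0.609). Ephb3, a receptor for B class ephrins, was at 70.5, 47.7 and 33.1 in WT microglia (ENSMUSG00000005958, GRCm38 chr16:21204755-21223305, plus strand) and at 3.81 to 8.003 in the other 9 libraries. The log2 difference between KO and WT was -2.95 ± 0.39 in microglia and -0.02 ± 0.39 in macrophages. Efnb2, known as a marker of arterial vessels, stood at 47.6, 20.6 and 22.8 in WT microglia, and at most 4.36 in the other libraries (a log2 difference of -3.41 ± 0.63 in KO microglia). The vessel cell marker sums given above were also high in WT microglia (194 to 307), but overlapped those of KO macrophages (116.8 to 201), where the 3 B class genes were low. Their part in the B class values was not tested. The KO effect on Efnb1 in macrophages differed from that in microglia by 1.73 ± 0.37 (adjusted p = 0.00282).

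**Figure D4:**
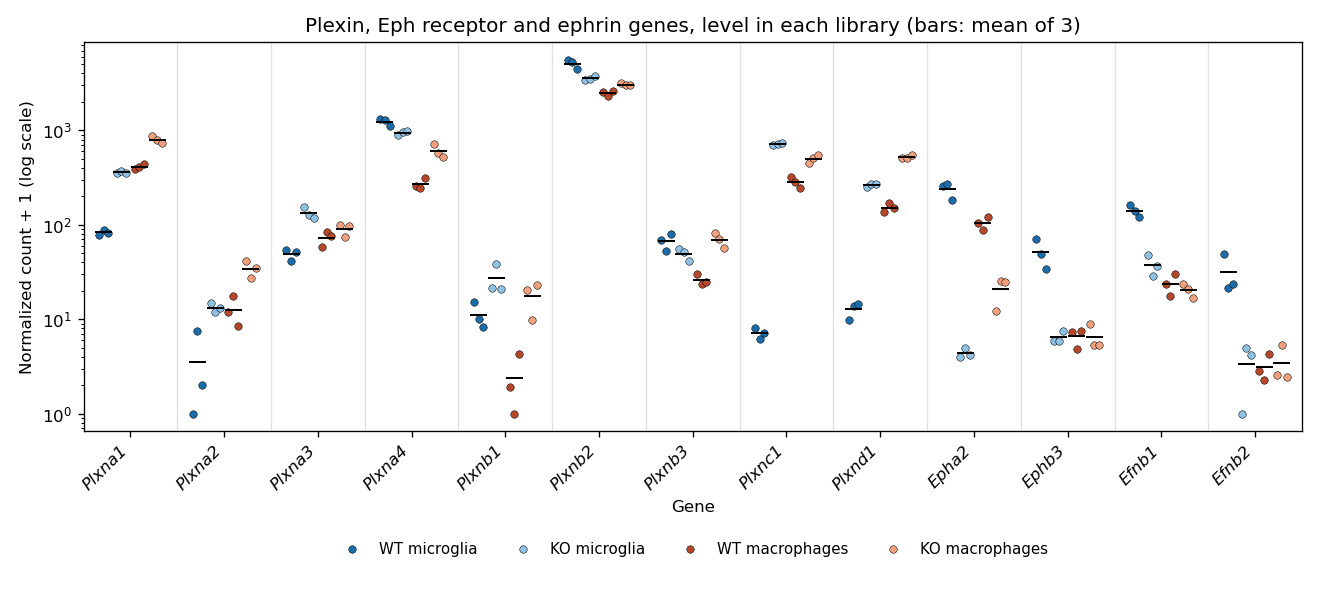
Normalized count + 1 (log y axis) of the 9 plexins, 2 Eph receptors and 2 ephrins that were tested (x axis) in every library; points are libraries, bars means of 3 and colours the 4 groups. Plxnc1 and Plxnd1 are near the floor in WT microglia alone, whereas Efnb1 is highest there. So are Ephb3 and Efnb2, which were tested only for their level in that group.

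The third question was how the cells of the 2 origins differed from each other. This comparison uses the same WT and KO libraries as the tests above, so its values are a second view of the same levels. It also takes in irradiation, transplant and the killing of host microglia, which only the macrophage groups had. In WT cells, 7 members were higher and 13 lower in macrophages than in microglia, while 39.4% of all genes were called, 19.2% higher and 20.2% lower. Without Sema6a, Ephb3 and Efnb2, the 13 lower became 10. Libraries of the WT groups were fully apart for 8 members upward and 13 downward, and for 53.9% of all genes (26.3% higher, 27.6% lower). Without Sema6a, Ephb3 and Efnb2, these became 8 upward and 10 downward. Plxnc1 (5.30 ± 0.13), Plxnd1 (3.59 ± 0.15), Plxna1 (2.31 ± 0.09) and Nrp1 (1.44 ± 0.10) were higher in WT macrophages. Plxna4 (-2.19 ± 0.12, adjusted p = 1.37e-09), Plxnb2 (-1.02 ± 0.09), Nrp2 (-1.50 ± 0.10), Efnb1 (-2.60 ± 0.26) and Sema4g (-3.53 ± 0.37) were higher in WT microglia. In KO cells, 3 members were higher and 7 lower in macrophages, while 10.5% of all genes were called, 5.45% higher and 5.05% lower. The 7 lower became 6 without Sema6a, and 4 without KO microglia replicate 1 or without replicate 3, and the 3 higher became 5 without KO macrophages replicate 1. The members that still differed included Sema4g (-3.61 ± 0.37, adjusted p = 9.88e-06), Plxna1 (1.15 ± 0.09, adjusted p = 9.54e-07), Nrp2 (-0.99 ± 0.10, adjusted p = 5.66e-06) and Sema4d (-0.67 ± 0.09, adjusted p = 0.000171). Epha2 changed its order: it was lower in macrophages than in microglia among WT cells (-1.19 ± 0.29, adjusted p = 0.00381) and higher among KO cells (2.18 ± 0.29, adjusted p = 9.22e-05). Plxnc1 did so too, from 5.30 ± 0.13 to -0.51 ± 0.13 (adjusted p = 0.0196), but the latter call was lost without any of KO microglia replicates 1, 2 and 3 or KO macrophages replicates 1 and 2 (adjusted p = 0.0577, 0.0669, 0.0851, 0.0509 and 0.0527). The root mean square of the log2 difference between origins over the 20 members other than Sema6a, Ephb3 and Efnb2 was 2.18 in WT and 1.16 in KO cells, beside 1.24 and 0.74 over all genes tested.

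**Figure D5:**
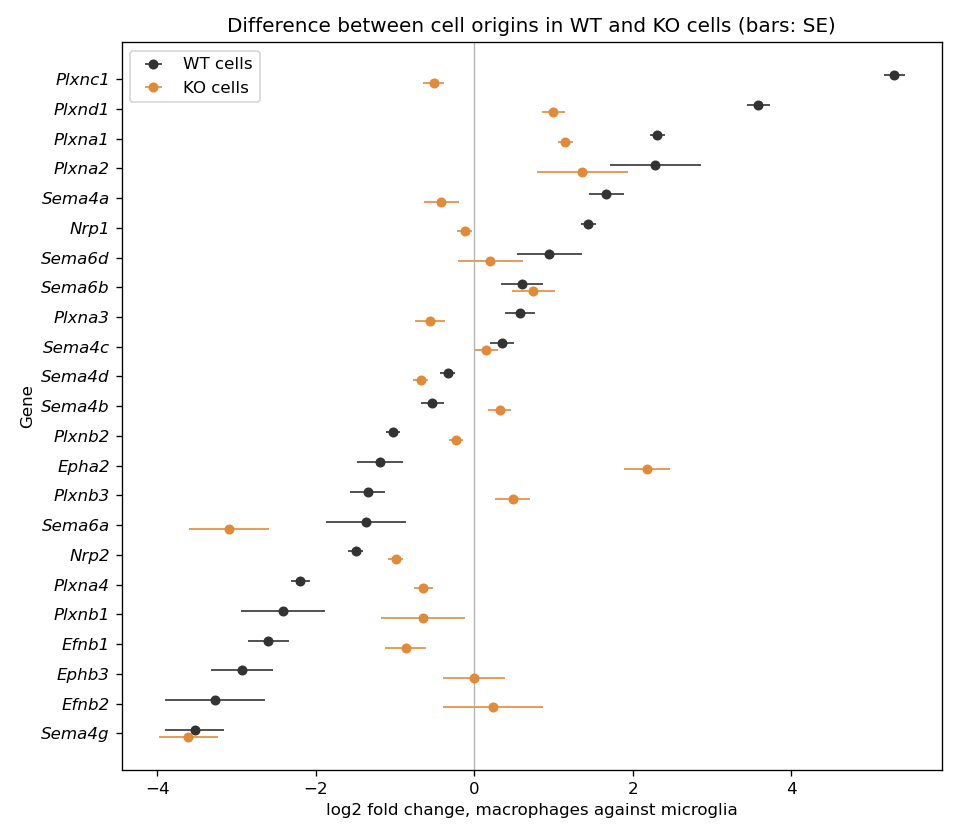
Log2 fold change of macrophages against microglia (x axis) for each tested member (y axis), in WT cells (dark) and KO cells (orange), with SE bars. WT values run from -3.53 (Sema4g) to 5.30 (Plxnc1), and most KO values lie nearer to 0, apart from those of Epha2, Sema4d, Sema4g, Sema6a and Sema6b.

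Genes that act with these receptors were counted from lists drawn up from general knowledge, and nothing particular to a list is read from its share. Of 27 tested receptor partners and effectors of semaphorin signalling, 6 rose and 8 fell in KO microglia (51.9%, beside 42.5% of all genes; median log2 -0.04, beside -0.01), and 9 rose and 3 fell in KO macrophages (44.4%, beside 31.4%). Cd72, the B cell and myeloid receptor that binds Sema4D, rose from 40.2 ± 16.9 to 1240.5 ± 54.3 in microglia (5.00 ± 0.22, adjusted p = 5.89e-11). Trem2, whose product joins plexin-A1 in the Sema6D receptor complex, fell from 2719 ± 235 to 399.6 ± 51.3 (-2.77 ± 0.11, adjusted p = 2.46e-11), while Plxna1 and Sema6d rose. The GTPase gene Rnd3, whose product belongs to the Rnd proteins that bind plexins, had 1 read in WT microglia and averaged 24.1 in KO microglia (ratio 67.6, exact 95% counting interval 11.8 to 2702). It went from 6.46 ± 2.39 to 174 ± 41.2 in macrophages (4.58 ± 0.41, adjusted p = 6.99e-07). The kinase gene Fyn, which acts below plexin-A receptors, rose in KO macrophages from 42 ± 7.65 to 302 ± 47.5 (2.82 ± 0.19, adjusted p = 4.84e-08). Its means in microglia were 106 ± 30.8 in WT and 421 ± 26.7 in KO. The oxidoreductase gene Mical3 fell in KO macrophages (-2.61 ± 0.60, adjusted p = 0.00415).

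Of 19 tested effectors of Eph and ephrin signalling, 5 rose and 8 fell in KO microglia (68.4%, beside 42.5% of all genes) and 7 rose and 3 fell in KO macrophages (52.6%, beside 31.4%). Vav3, a guanine nucleotide exchange factor gene, rose from 1.84 ± 0.87 to 1116 ± 48.6 in microglia (8.67 ± 0.19, adjusted p = 2.04e-14) and from 106 ± 4.82 to 829 ± 87.6 in macrophages (2.95 ± 0.19, adjusted p = 2.11e-08). The scaffold gene Itsn1 rose in microglia from 86.7 ± 19.8 to 2968 ± 184 (5.10 ± 0.13, adjusted p = 9.14e-14), and Chn2, a GTPase-activating protein gene, fell from 520.2 ± 35.6 to 77 ± 3.99 (-2.74 ± 0.10, adjusted p = 1.18e-11). In macrophages the kinase gene Src fell (-2.14 ± 0.48, adjusted p = 0.0031). The exchange factor gene Tiam1 rose there from 16.9 ± 6.42 to 47.3 ± 14.6 (1.44 ± 0.32, adjusted p = 0.00292). Its means went the other way in microglia, 251 ± 95.9 in WT and 114 ± 17.2 in KO. Of 26 genes of the netrin, Slit and RGM guidance families, 6 were tested, of which 2 rose and 1 fell in KO microglia (3 of 6, beside 42.5% of all genes) and 2 rose in KO macrophages (33.3%, beside 31.4%). Slit1, a secreted ligand of Robo receptors, had 1 read in WT microglia and was at 100.0 ± 15.9 in KO microglia (ratio 284, exact 95% counting interval 50.7 to 11262), and at 85.6 ± 11.9 and 109 ± 27.7 in WT and KO macrophages. Rgmb, a BMP co-receptor gene, fell in KO microglia from 303 ± 4.58 to 128 ± 14.7 (-1.24 ± 0.19, adjusted p = 8.04e-05).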

How the data were processed

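The authors deposited log2 values for 25904 genes in 12 libraries of total RNA (RNA integrity numbers 7.1 to 10, per the labels' protocols). Per the submitters' processing notes, tools were bcl2fastq, CASAVA and STAR, and the build GRCm38. Read counter, annotation and strand setting: not given in the sources used here. On the linear scale, 100% of 310848 values less 1 were a whole number of reads (tolerance 0.01) times a constant of their library, which was the inverse of a median-of-ratios size factor. The deposited log2 values are therefore log2(gene count divided by size factor + 1). Reads shared with an antisense or overlapping gene may therefore be counted for either. Symbols, coordinates and exon lengths came from GENCODE mouse release 21 (25730 identifiers with a symbol, 174 without), promoter windows from RefSeq.

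Genes reaching 10 normalized counts in 3 or more libraries were tested with limma 3.58.1 in R 4.3.3 (lmFit, eBayes with trend) on the deposited values, with 4 group means, 8 residual degrees of freedom and a threshold of 0.05 on the Benjamini-Hochberg adjusted p over 12519 genes. The p-values measure the spread between pools of 1 to 5 mice. Every sentence's adjusted p is from this fit unless an alternative is named. The alternatives were pseudocounts of 0.5 and 5, no filter or a minimum of 30, TMM scaling, fits of 2 groups, Ddx3y as a covariate, each library left out, and voom. Labels carry no replicate numbers; replicates are numbered in accession order. Counting intervals and floors cover counting error only. Members called in at least 1 comparison with a group mean of at least 50 are given in every library, Ephb3 as a range outside WT microglia. From each list of partners, up to 3 called genes with the largest change and a group mean of at least 100 are named. The members and lists were chosen with earlier results of these data known. Tables were made in Python 3.11.15 (pandas 2.3.3, scipy 1.17.1), figures with matplotlib 3.10.9.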

Additional observations from a re-analysis of the deposited data

Results flagged for a closer look

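For 15 members the KO effect in macrophages differed from that in microglia by the interaction term of the limma fit (adjusted p at most 0.05), while this held for 25.8% of all genes tested. The effect was more negative in macrophages for 6 of them, all of which rose in KO microglia, with log2 differences of -5.81 for Plxnc1, -2.59 for Plxnd1, -2.09 for Sema4a, -1.56 for Nrp1, -1.16 for Plxna1 and -1.13 for Plxna3. It was more positive in macrophages for 9, with log2 differences of 3.51 for Efnb2, 3.37 for Epha2, 2.92 for Ephb3, 1.83 for Plxnb3, 1.73 for Efnb1, 1.55 for Plxna4, 0.85 for Sema4b, 0.80 for Plxnb2 and 0.51 for Nrp2. All of these 9 but Nrp2 fell, or in Plxnb3 did not pass the test, in KO microglia. The difference subtracts the effect in microglia, so its sign is partly set by that effect, and no result is read from this pairing. Ephb3 and Efnb2 could be tested only because they were high in WT microglia, so their values are a description; without them 13 members remain.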

How the results depend on the processing

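Counts of called members were within 1.5 times the main count under all alternatives run, except for KO macrophages against KO microglia. There the 3 higher became 5 with limma's voom on the recovered reads, an alternative added after the unit of the values was known. With each library left out in turn, the counts ranged from 3 to 5 higher (5 without KO macrophages replicate 1) and from 4 to 7 lower (4 without KO microglia replicate 1 or 3). The other counts with 1 library left out were 10 to 12 higher and 7 to 10 lower in KO microglia, 9 to 11 higher and 4 lower in KO macrophages, and 6 to 8 higher and 10 to 13 lower between WT origins. For the difference between KO effects they were 7 to 10 and 6 to 7. Without a WT microglia library 21 members were tested, since Ephb3 and Efnb2 no longer passed the filter. Without a KO microglia library 22 were tested, since Sema6a did not pass. The counts of 7 and 8 lower in KO microglia came from the fits without a WT microglia library. The 70 calls of the 19 genes with a group mean of at least 50 were followed through 20 alternatives. In all of those in which the gene could be tested, 64 kept their direction and call, and none reversed. These genes include Ephb3, whose values are a description. Ephb3 dropped out of the filter when a WT microglia library was left out, so its calls could not be lost there. The calls lost at least once were those of Plxna4, Plxnb2, Plxnc1 and Nrp2 given above, Plxna3 between WT origins (lowest value 0.45, without WT microglia replicate 2) and Efnb1 between KO origins (main -0.86, adjusted p = 0.0476; lost in 14 alternatives). The cause was not tested. The count models listed as alternatives, DESeq2 and edgeR, were not run here. No paired analysis was possible because the labels give no shared replicate numbers.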

Other observations

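Among the members too low to be tested, Ephb2 stood out in 1 library. It was at 136.5 normalized counts in KO microglia replicate 1, and at most 6.88 in the other 11 libraries. Sema5b was at 14.4 in KO macrophages replicate 1 and at most 2.95 elsewhere, and Epha4 was at 6.87, 6.88 and 10.4 in KO microglia and at most 6.44 elsewhere. Ephb6 reached 9.82 and 13.7 in KO microglia replicates 1 and 3 and 9.31 in WT microglia replicate 3, and at most 1.75 in the macrophages. They are named here because of these values.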
